A study of Mus musculus with 6 samples.

Results

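The mRNAs of the SR proteins, the hnRNPs, the proteins of U1 snRNP and the proteins that recognise the 3′ splice site were measured in immortalized murine embryonic fibroblasts (MEF) lacking TIA1 or TIAR. The members were chosen by gene name on the array: all probes named Srsf or Sfrs with a number, Hnrnp or Hnrp, and those for Ptbp1, Ptbp2, Snrpa, Snrpc, Snrnp70, U2af1, U2af2 and Sf1, with Hnrnpd left out. This gave 39 genes of 34797 gene names on the array, read by 76 of 55681 probes. RNA came from WT MEF (strain W4 in the labels), TIA1 KO MEF (BALB/c) and TIAR KO MEF (C57BL/6), all immortalized, under 1 growth protocol and with no treatment named, with 2 independent samples per group hybridized to 6 one-colour arrays. The 3 groups differ in strain and in cell line as well as in genotype, and the data do not separate these. A single slide held all arrays, with the TIA1 KO arrays in another row than the other 4, so the row and the TIA1 KO group cannot be told apart. The labels do not say whether the cells were separate cultures of 1 line or separate lines, so the p-values measure only the spread between these samples.

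TIA1 and TIAR (gene Tial1) are RNA-binding proteins that bind uridine-rich sequences downstream of weak 5′ splice sites and help U1 snRNP to settle there, TIA1 through contact with the C protein of U1 (gene Snrpc). SR proteins, which carry RNA recognition motifs and a domain rich in arginine and serine, bind exonic enhancers and promote the use of nearby splice sites. The hnRNPs are abundant nuclear RNA-binding proteins that often repress splicing, and polypyrimidine tract-binding proteins compete for the uridine- and cytidine-rich tracts that U2AF also reads. The comparisons ask whether the mRNA levels of these partners and competitors differed in cells without TIA1 or TIAR. Splicing itself was not measured.

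The genes deleted were read as a check on the labels. The brightest Tial1 probe gave log2 values of 13.71 and 13.29 (WT MEF), 14.20 and 13.77 (TIA1 KO MEF) and 9.80 and 11.78 (TIAR KO MEF). Both TIAR KO arrays were below all others, with a log2 fold change of -2.71 ± 0.62 (standard error) that missed the threshold (adjusted p = 0.0668, limma on the 4 arrays with Benjamini-Hochberg adjustment over all 55681 probes, used for all adjusted p-values here). The other Tial1 probe fell by 1.47 on the log2 scale (adjusted p = 0.0339). For Tia1, the brightest probe gave 10.57 and 8.71 (WT MEF), 7.52 and 8.38 (TIA1 KO MEF) and 9.75 and 9.77 (TIAR KO MEF). Its log2 fold change in TIA1 KO MEF was -1.69 ± 0.75 (adjusted p = 0.248). Of the other Tia1 probes, one gave -1.86 (adjusted p = 0.150) and the third, rated well above background on 1 of the 6 arrays, gave 1.10 (adjusted p = 0.107). Where these probes lie relative to the deleted parts is not given in the sources used here, so a probe outside the deletion checks nothing.

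The label of the cells was set against 12 fibroblast markers. Vim gave log2 values of 17.36 and 17.60 (WT MEF), 17.83 and 17.95 (TIA1 KO MEF) and 17.92 and 17.95 (TIAR KO MEF). S100a4, with the brightest probe of the list, lay between 17.81 and 18.45 on all 6 arrays, and Lum was not well above background on any. Pdgfra, a receptor that marks mesenchymal fibroblasts, and Col6a3 were not well above background on either WT array. Pdgfra was at least 10.3-fold higher in TIA1 KO MEF (adjusted p = 0.0198) and at least 29.0-fold higher in TIAR KO MEF (adjusted p = 0.000181) than in WT MEF. "At least" here sets the measured mean of the brighter group against the lowest signal rated well above background on each array of the dimmer group, or against the probe's own signal where that was higher. Of the 12 markers, 6 were up-regulated without TIA1 and 9 without TIAR, and none was down-regulated. Between the knockouts 2 were higher in TIAR KO MEF, Thy1 by at least 221-fold (adjusted p = 0.0105) and Dcn by 6.86 on the log2 scale (adjusted p = 0.0132), and Col6a3 was lower (log2 difference -5.74, adjusted p = 0.0125). The summed linear level of the list was 576058 and 612060 (WT MEF), 1444170 and 1422480 (TIA1 KO MEF) and 1473650 and 1500510 (TIAR KO MEF). Of 6 epithelial markers, 3 were up-regulated in TIAR KO MEF, among them Krt18 with a log2 fold change of 2.62 (adjusted p = 0.000811). The epithelial list summed to 5927 and 6389 (WT MEF), 11533 and 12270 (TIA1 KO MEF) and 9404 and 8661 (TIAR KO MEF). The Krt19 probe was its brightest, and Epcam was not well above background on any WT or TIAR KO array. Of 5 endothelial markers none was called, Tek passed on adjusted p alone in TIAR KO MEF (0.94, adjusted p = 0.0311), and Cdh5 and Emcn were not well above background on any array. Their sums were 3301 and 3582 (WT MEF), 3627 and 3705 (TIA1 KO MEF) and 3891 and 4321 (TIAR KO MEF), with the Kdr probe the brightest. Of 6 leukocyte markers, Ptprc and Emr1 were not well above background on any array, and Cd14 was down-regulated in TIAR KO MEF (log2 fold change -1.28, adjusted p = 0.0136). Between the knockouts Cd68 was higher and Itgam and Cd14 were lower in TIAR KO MEF (adjusted p = 0.0484, 0.0478 and 0.0397). Their sums were 12401 and 11670.5 (WT MEF), 23064 and 20196 (TIA1 KO MEF) and 10940.5 and 10905 (TIAR KO MEF), with the Itgam probe the brightest. The part of these differences between the cell lines in the values below was not tested. In such bulk samples fewer cells of a type and less RNA per cell cannot be told apart.

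Splicing factor mRNAs were well detected. Of the 76 probes, 60 (78.9%) were rated well above background on all 6 arrays, against 24.8% of all probes. Only 4 were not well above background on any array: both probes of Srsf12, 1 of the 3 for Srsf2 and 1 of the 2 for Snrpc. Between 61 probes (the first TIA1 KO array) and 72 probes passed on an array. The first TIA1 KO array also had the highest signal on spots that match no mouse RNA, with a median intensity of 196 against 119 on the other TIA1 KO array and 88.6 to 112 on the other 4. No splicing factor spot was marked as an outlier or as saturated.

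In TIA1 KO MEF none of the 76 probes passed the thresholds (adjusted p under 0.05 and fold change above 2), where 2.32% of all probes did. At an unadjusted p under 0.05 there were 6 splicing factor probes (7.89%), against 26% of all probes. In TIAR KO MEF 1 probe was called (1.32%), against 5.63% of all probes, and 2 passed on the adjusted p alone (2.63%), against 7.20%. Unadjusted, 14 passed (18.4%), against 19.4% of all. Between TIAR KO and TIA1 KO MEF 1 probe was called (1.32%), against 2.26% of all, and unadjusted 10 passed (13.2%), against 21.4%. Most probes of the array were dim, so the shares were also taken over probes well above background on all 6 arrays, a filter that leaves out members lost from view in 1 group. Of the 60 such splicing factor probes none was called in TIA1 KO MEF (3.94% of all such probes), 1 in TIAR KO MEF (1.67%, against 10.4%) and 1 between the knockouts (1.67%, against 3.33%). Unadjusted, 4 (6.67%), 10 (16.7%) and 8 (13.3%) of them passed in these comparisons, against 31%, 36.5% and 29.2%. The called probe was the same in both, the distal probe of Hnrnpab, and the other on adjusted p alone belonged to Hnrnpul2. The comparisons with WT MEF share the same WT arrays, so they are not independent.

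**Figure D1:**
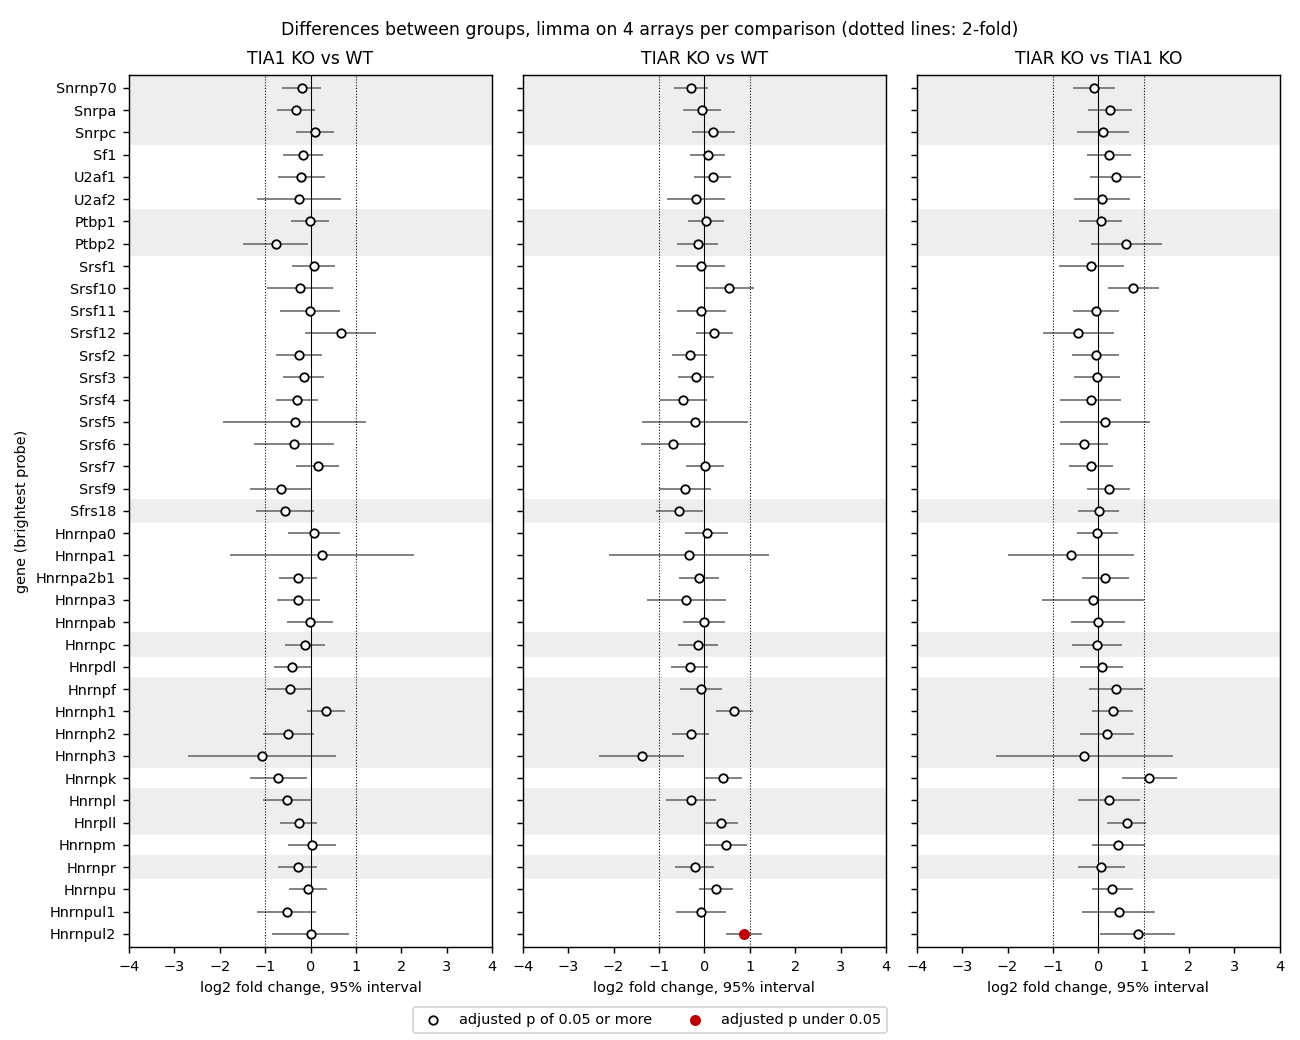
Log2 fold change of the brightest probe of each of the 39 genes in the 3 comparisons (x axis), with its 95% interval from limma, grouped by role (y axis, shaded blocks). Nearly all genes lie between the dotted 2-fold lines, and Hnrnpul2 in TIAR KO against WT MEF is the only red point (0.87); the called Hnrnpab probe is not the brightest of its gene and is not drawn here.

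None of the 4 probes for the 3 proteins particular to U1 snRNP passed in any comparison. Snrnp70, for the U1-70K protein that binds the first stem-loop of U1 snRNA, gave 16.11 and 16.11 (WT MEF), 15.84 and 15.99 (TIA1 KO MEF) and 15.81 and 15.83 (TIAR KO MEF). All 4 knockout arrays were below both WT arrays, by 0.20 in TIA1 KO MEF (adjusted p = 0.427) and 0.29 in TIAR KO MEF (adjusted p = 0.395) on the log2 scale. Snrpa, for the A protein of U1, gave 15.32 and 15.39 (WT MEF), 14.99 and 15.09 (TIA1 KO MEF) and 15.40 and 15.20 (TIAR KO MEF). Its TIA1 KO arrays were the lowest, with a log2 fold change of -0.32 against WT MEF (95% interval -0.73 to 0.10, adjusted p = 0.264). Snrpc, for the C protein that TIA1 contacts, gave 14.89 and 14.99 (WT MEF), 15.07 and 15 (TIA1 KO MEF) and 14.95 and 15.32 (TIAR KO MEF). The groups differed by 0.10 (95% interval -0.32 to 0.51) and 0.20 (95% interval -0.28 to 0.67), both within 2-fold in the authors' table. With arrays scaled to a common median the same probe was at -1.48 in TIA1 KO MEF (adjusted p = 0.0138). The median of all probes well above background on every array was -1.53 in that scaling. The Snrpc value lay beside that median, so it does not set Snrpc apart from other well detected probes.

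Snrpc was also probed just downstream, and the pair is shown because neighbouring probes of 1 transcript gave opposite accounts of detection. The bright probe covers chr17:27988801-27988860 and the other chr17:27988857-27988916 (mm9, plus strand), and the capitals mark the 4 bases that they share:
Snrpc bright probe, bases 46 to 60: acaaaaaagtgCAGT
Snrpc dim probe, bases 1 to 15: CAGTtttcacttata
The dim probe gave log2 values between 6.45 and 6.96 and was not well above background on any array. Its GC content was 21.7%, against 35% for the bright probe, and the part of this in its low signal was not tested. A value for Snrpc therefore rests on the bright probe alone.

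The proteins that define the 3′ splice site and the polypyrimidine tract were measured by 10 probes, of which none was called in any comparison. U2af1, the U2AF subunit that contacts the AG dinucleotide, gave 16.52 and 16.60 (WT MEF), 16.21 and 16.51 (TIA1 KO MEF) and 16.84 and 16.64 (TIAR KO MEF). Its other probe gave 10.72 and 11.69, then 10.97 and 11.77, then 12.04 and 12.48, with a log2 fold change of 1.06 ± 0.35 in TIAR KO MEF that missed the threshold (adjusted p = 0.175). Both U2af1 probes were highest in TIAR KO MEF and neither passed. U2af2, the U2AF subunit that binds the polypyrimidine tract, gave 10.66 and 11.35 (WT MEF), 10.52 and 10.97 (TIA1 KO MEF) and 10.81 and 10.84 (TIAR KO MEF), with all groups overlapping. Sf1, which binds the branch point, gave 14.94 and 14.91, then 14.67 and 14.85, then 15.06 and 14.94 in the same order. The largest log2 difference of this probe was 0.24 between TIAR KO and TIA1 KO MEF (adjusted p = 0.437). The Sf1 probe from base 3999 lay on the other side, at -0.56 between the knockouts (adjusted p = 0.188) and -0.365 in TIAR KO against WT MEF (adjusted p = 0.387). The third, from base 1295, gave -0.075 and -0.04.

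Ptbp1, the general polypyrimidine tract-binding protein, gave 15.53 and 15.49 (WT MEF), 15.45 and 15.55 (TIA1 KO MEF) and 15.47 and 15.63 (TIAR KO MEF), with 95% intervals of -0.43 to 0.41 and -0.36 to 0.44 against WT MEF. Ptbp2, its paralogue known from neurons, gave 11.30 and 11.28 (WT MEF), 10.23 and 10.81 (TIA1 KO MEF) and 10.98 and 11.30 (TIAR KO MEF). The TIA1 KO arrays were the lowest for Ptbp2, by 0.77 ± 0.25 on the log2 scale against WT MEF (adjusted p = 0.178). The TIAR KO arrays overlapped the WT arrays.

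**Figure D2:**
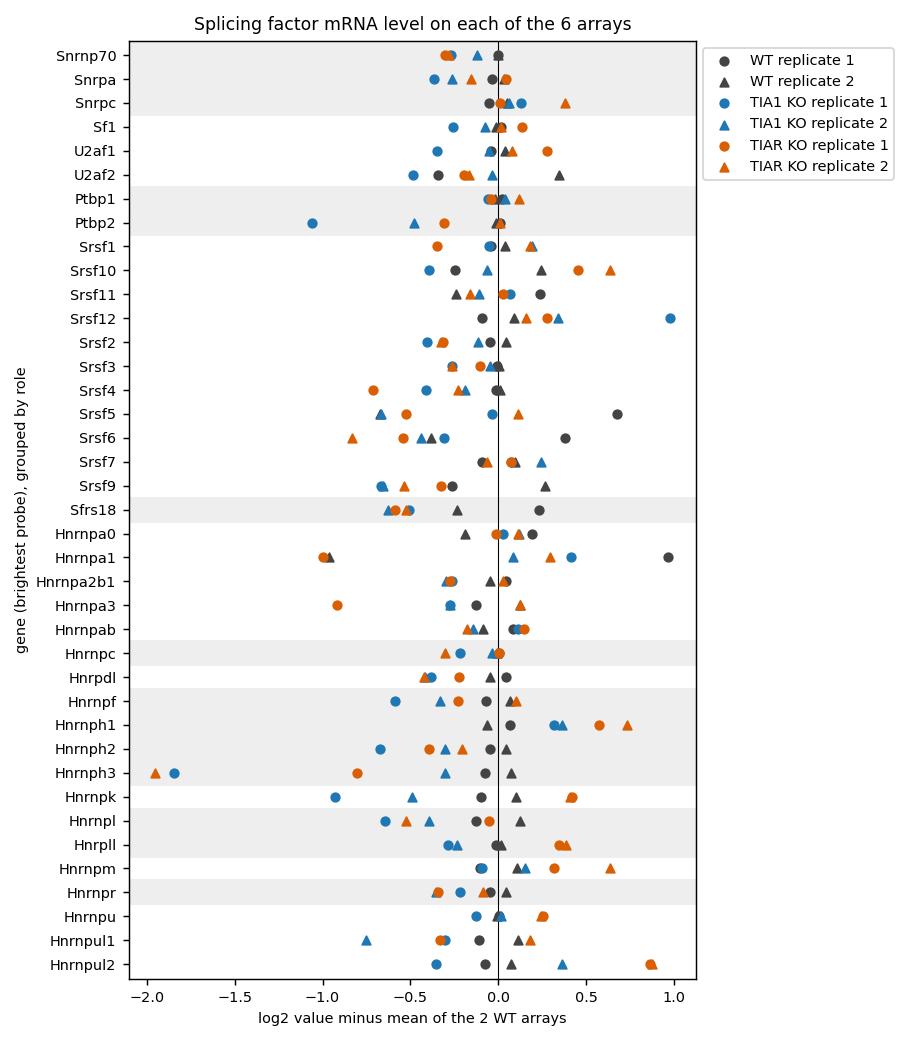
Log2 value of the brightest probe of each gene on each array, minus the mean of the 2 WT arrays (x axis), with genes grouped by role (y axis, shaded blocks), colour for the group and symbol for the replicate. Most points lie within 0.5 of the WT mean, Hnrnpul2 has both TIAR KO arrays at the right, and the WT arrays lie furthest apart for Hnrnpa1.

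Among the SR proteins, 24 probes covered 11 genes and none was called in any comparison. Read from the brightest probe of each, 8 of the 11 genes were below WT MEF without TIA1 and 8 without TIAR, with medians of -0.23 and -0.19 on the log2 scale. Over all 24 SR probes 17 and 14 were below, with medians of -0.17 and -0.09. Of all probes on the array 58.4% and 52.8% were below. Srsf12 is counted there although neither of its probes was well above background. Srsf1, which binds purine-rich enhancers and is the best known of the family, gave 14.30 and 14.38 (WT MEF), 14.29 and 14.53 (TIA1 KO MEF) and 13.99 and 14.52 (TIAR KO MEF). Srsf3, a small SR protein that also serves mRNA export, gave 16.07 and 16.08, then 15.81 and 16.03, then 15.97 and 15.81. Its TIA1 KO and TIAR KO arrays were all below both WT arrays, by 0.16 (adjusted p = 0.541) and 0.19 (adjusted p = 0.629).

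In TIA1 KO against WT MEF the lowest adjusted p among SR proteins was that of Srsf9, with 14.92 and 15.45 on the WT arrays against 14.52 and 14.53 (log2 fold change -0.66, adjusted p = 0.196). In the other comparisons it was that of a probe of Srsf10, a splicing repressor when dephosphorylated. Its probe at base 2896 of the transcript gave 9.73 and 8.53 (WT MEF), 7.28 and 8.22 (TIA1 KO MEF) and 9.72 and 9.64 (TIAR KO MEF), the TIAR KO arrays being 1.93 ± 0.37 above the TIA1 KO arrays (adjusted p = 0.106). Only 1 of the TIA1 KO arrays had this probe well above background. The brightest Srsf10 probe gave 11.71 and 12.20, then 11.56 and 11.89, then 12.41 and 12.59, and TIAR KO MEF were 0.78 above TIA1 KO MEF (adjusted p = 0.165). The third, from base 910, gave 9.63 and 9.72, then 8.12 and 9.66, then 8.98 and 9.27, with TIAR KO MEF at -0.55 from WT MEF (adjusted p = 0.160) and overlapping TIA1 KO MEF. The Srsf10 means in TIAR KO MEF thus lay on both sides of WT MEF, depending on the probe. Among the brightest probes of the family Srsf5 spread most between replicates, with 15.12 and 13.77 on the WT arrays, and its 95% interval in TIA1 KO MEF ran from -1.92 to 1.22. Sfrs18, an SR-related protein now named Pnisr, gave 11.68 and 11.21 (WT MEF), 10.94 and 10.82 (TIA1 KO MEF) and 10.86 and 10.92 (TIAR KO MEF). All 4 knockout arrays were below both WT arrays, by 0.57 (adjusted p = 0.220) and 0.56 (adjusted p = 0.224). Its dimmer probe was lower still in TIA1 KO MEF, by 1.43 (adjusted p = 0.165), and was well above background on 1 of those 2 arrays.

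Hnrnpab, an hnRNP of the A/B type that binds both RNA and single-stranded DNA, held the only called probe. The distal probe (A_52_P313080, from base 2318 of the transcript) gave 14.32 and 14.69 (WT MEF), 14.07 and 14.24 (TIA1 KO MEF) and 15.61 and 15.79 (TIAR KO MEF). Both TIAR KO arrays were above all others, and the signal rose by 1.20 ± 0.20 on the log2 scale against WT MEF (2.29-fold, 95% interval 0.71 to 1.68, adjusted p = 0.0231). It was 1.54 ± 0.18 higher in TIAR KO than in TIA1 KO MEF (adjusted p = 0.0475), while TIA1 KO MEF were -0.35 from WT MEF (adjusted p = 0.328). The call between the knockouts was lost with the 75th percentile (1.44, adjusted p = 0.0700), with a replicate block (adjusted p = 0.183) and without either TIAR KO array or the first TIA1 KO array (adjusted p 0.0638 to 0.421). The proximal probe (A_52_P20966, from base 1032) gave 17.31 and 17.14 (WT MEF), 17.34 and 17.08 (TIA1 KO MEF) and 17.37 and 17.05 (TIAR KO MEF). Its groups overlapped completely, and its 95% interval in TIAR KO against WT MEF was -0.48 to 0.45. The 2 probes thus disagreed on whether Hnrnpab changed, and the first 30 bases of each are shown because the call depends on where in the gene it was read:
Hnrnpab proximal probe, chr11:51414914-51414973 (mm9, minus strand): tagtacaaattacggaaagagccagcgacg
Hnrnpab distal probe, chr11:51413628-51413687 (mm9, minus strand): gggatctgagctttgtataacaaccacttt
When any 1 of the 4 arrays was left out, the distal probe was 1.01 to 1.38 higher in TIAR KO than in WT MEF with adjusted p-values of 0.0961 to 0.199. The call was also lost with arrays scaled to a common median (0.73, adjusted p = 0.115) or to their 75th percentile (0.75, adjusted p = 0.256).

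The other A/B genes, Hnrnpa0, Hnrnpa1, Hnrnpa2b1 and Hnrnpa3, had no called probe. Hnrnpa2b1, which carries the A2 and B1 proteins, gave 16.22 and 16.13 (WT MEF), 15.91 and 15.88 (TIA1 KO MEF) and 15.90 and 16.20 (TIAR KO MEF). Its TIA1 KO arrays were below both WT arrays by 0.28 (adjusted p = 0.293). Hnrnpa1, an antagonist of SR proteins at many exons, gave 14.58 and 12.65 (WT MEF), 14.03 and 13.70 (TIA1 KO MEF) and 12.62 and 13.91 (TIAR KO MEF). The 2 WT arrays differed by more than any group difference of this probe, while the other Hnrnpa1 probe stayed between 12.08 and 12.69 on all 6 arrays. The mouse genome holds processed pseudogenes of Hnrnpa1 and Hnrnpa3, and signal shared with these was not tested.

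Hnrnpul2, a nuclear scaffold protein related to hnRNP U, passed on adjusted p in TIAR KO MEF but below the 2-fold limit. It gave 10.29 and 10.44 (WT MEF), 10.01 and 10.73 (TIA1 KO MEF) and 11.23 and 11.24 (TIAR KO MEF). Both TIAR KO arrays were above all others, 0.87 ± 0.16 over WT MEF on the log2 scale (1.83-fold, adjusted p = 0.0330). Only 1 of the TIA1 KO arrays had it well above background, and it was 0.87 higher in TIAR KO than in TIA1 KO MEF without passing (adjusted p = 0.225). It had a single probe, whose first 30 bases are shown because it was the other to pass on adjusted p:
Hnrnpul2 probe, chr19:8908365-8908424 (mm9, plus strand): gtgttttatcagatgtctgttgtagttgta
The pass depended on the setting. With any 1 array left out it was lost, at log2 fold changes of 0.795 to 0.945. At an unchanged 0.87 the adjusted p was 0.211 with all 3 groups in 1 fit, 0.0866 with a replicate block and 0.0514 with an intensity trend. Processed intensities at the 75th percentile gave 0.76 (adjusted p = 0.245). The probe still passed with normexp, loess and quantile on the scanner values (0.89, adjusted p = 0.0258). It also passed with only probes well above background (0.87, adjusted p = 0.0235). With arrays scaled to a common median the log2 fold change was 0.56 (adjusted p = 0.0981). Hnrnpu itself, the scaffold attachment protein, gave 14.62 and 14.61 (WT MEF), 14.49 and 14.63 (TIA1 KO MEF) and 14.87 and 14.86 (TIAR KO MEF), where the TIAR KO arrays were 0.25 above the WT arrays (adjusted p = 0.470). The dimmer probe of Hnrnpul1 had the lowest log2 fold change of all members in TIA1 KO MEF, with 9.26 and 9.46 (WT MEF), 7.22 and 8.38 (TIA1 KO MEF) and 8.95 and 8.87 (TIAR KO MEF) (log2 fold change -1.56 ± 0.45 in TIA1 KO MEF, adjusted p = 0.153). It was well above background on only 1 of the TIA1 KO arrays, so the exact size and rank are uncertain. The brightest Hnrnpul1 probe gave -0.53 in the same comparison (adjusted p = 0.243).

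The F and H proteins bind runs of guanines, and none of their 6 probes passed in any comparison. Hnrnpf gave 16.10 and 16.24 (WT MEF), 15.58 and 15.84 (TIA1 KO MEF) and 15.94 and 16.27 (TIAR KO MEF), with log2 fold changes of -0.46 (adjusted p = 0.212) and -0.07 (adjusted p = 0.906). Hnrnph1 gave 15.36 and 15.23 (WT MEF), 15.61 and 15.66 (TIA1 KO MEF) and 15.87 and 16.03 (TIAR KO MEF). Its 3 groups did not overlap, with log2 fold changes of 0.34 ± 0.15 in TIA1 KO MEF (adjusted p = 0.246) and 0.66 ± 0.16 in TIAR KO MEF (adjusted p = 0.0845). Hnrnph2, its X-linked paralogue, lay below WT MEF on all 4 knockout arrays, with 13.00 and 13.09 (WT MEF), 12.37 and 12.74 (TIA1 KO MEF) and 12.65 and 12.84 (TIAR KO MEF). Neither of its differences passed (adjusted p = 0.222 and 0.417). The brightest Hnrnph3 probe gave 10.02 and 10.17, then 8.25 and 9.79, then 9.29 and 8.14, the TIAR KO arrays being 1.38 ± 0.38 lower than WT MEF on the log2 scale (adjusted p = 0.107). Its other probe was 0.35 higher in the same comparison. Hnrpll, now named Hnrnpll and known as a regulator of CD45 splicing in lymphocytes, gave 14.06 and 14.09 (WT MEF), 13.79 and 13.84 (TIA1 KO MEF) and 14.42 and 14.46 (TIAR KO MEF). Its replicates lay within 0.05 of each other, yet the difference of 0.63 between the knockouts did not pass (adjusted p = 0.154).

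Probes of 1 gene could disagree, so the gene level values above depend on the probe read. Over the genes with at least 2 probes well above background on all 4 arrays, the highest and lowest log2 fold change lay over 1 apart in 1 of 16 genes in TIA1 KO MEF, in 5 of 23 in TIAR KO MEF and in 4 of 16 between the knockouts, with medians of 0.33, 0.44 and 0.51. Hnrnpk, a poly-cytidine binding protein, shows how near such probes can lie. The probes from bases 1391 and 1451 of its transcript abut on chr13 (58494618 to 58494677 and 58494558 to 58494617, mm9, minus strand), and the bases on each side of the join are given here:
Hnrnpk probe at 1391, bases 46 to 60: gatctgaagatcgga
Hnrnpk probe at 1451, bases 1 to 15: tcattaccattacag
The probe at 1391 gave 14.05 and 14.13 (WT MEF), 13.13 and 13.66 (TIA1 KO MEF) and 13.33 and 13.77 (TIAR KO MEF). The probe at 1451 gave 13.83 and 14.03, then 13.00 and 13.44, then 14.35 and 14.34. In TIA1 KO MEF they lay alike against WT MEF, at -0.70 and -0.71, and in TIAR KO MEF they lay on opposite sides of it, at -0.54 and 0.42. The third Hnrnpk probe, on another transcript, was at -0.44 in TIAR KO MEF, on the side of the probe at 1391. None of these differences passed (adjusted p between 0.170 and 0.521), nor did the difference of 1.12 between the knockouts at 1451 (adjusted p = 0.110).

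Hnrnpa3, measured by 7 probes, had the widest range of these genes in TIA1 KO MEF. The most distal, from base 5126, gave 12.52 and 12.06 (WT MEF), 13.32 and 13.54 (TIA1 KO MEF) and 12.07 and 13.35 (TIAR KO MEF). This was the lowest p of all members in TIA1 KO MEF, 1.14 ± 0.23 above WT MEF, and it did not pass (adjusted p = 0.108). The 6 other probes lay between -0.28 and 0.31 in that comparison. For Srsf1 the split was in TIAR KO MEF, where the most distal probe, from base 5101, gave 12.60 and 10.83 against 13.01 and 13.15 in WT MEF (log2 fold change -1.37 ± 0.55, adjusted p = 0.260) and the probe at base 2552 gave -0.09. The third, from base 5019, was also lower, with 10.34 and 10.96 against 11.63 and 11.17 in WT MEF (log2 fold change -0.75 ± 0.28, adjusted p = 0.216). For Hnrpdl, now Hnrnpdl, the probes lay at 0.53 and -0.40 in TIA1 KO MEF.

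**Figure D3:**
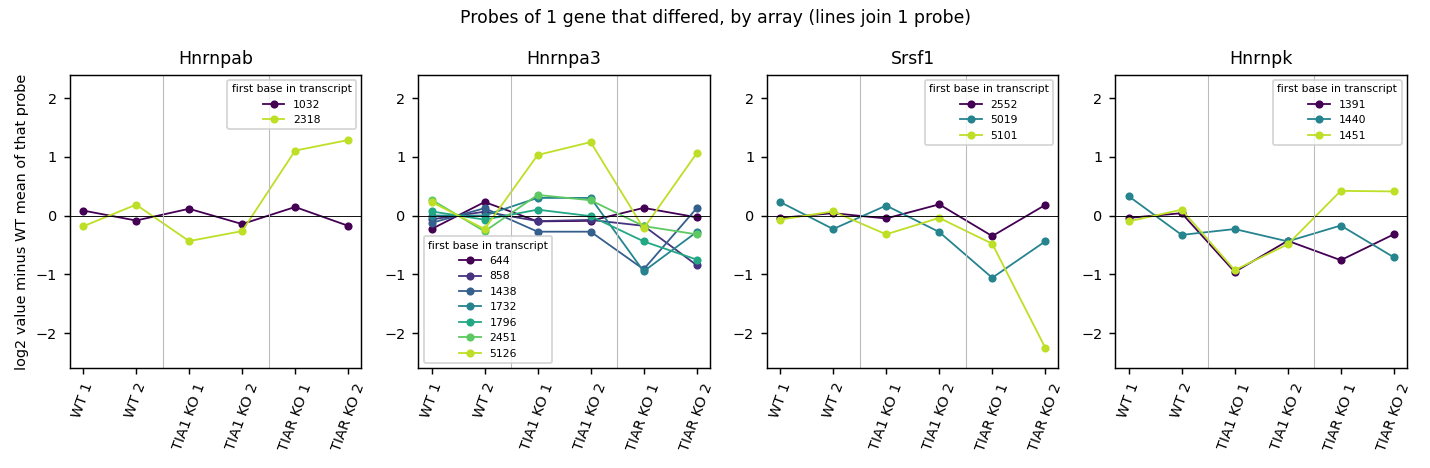
Log2 value on each of the 6 arrays (x axis) minus that probe's own WT mean (y axis) for each probe of Hnrnpab, Hnrnpa3, Srsf1 and Hnrnpk, labelled by its first base in the transcript it was designed on (for Hnrnpk, the probe at 1440 is on another transcript). The Hnrnpab probe at 2318 is over 1 above its WT mean on both TIAR KO arrays while the probe at 1032 stays near 0, and the Srsf1 probe at 5101 is by far the lowest on 1 TIAR KO array.

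The sizes of change are given beside those of other well detected probes, as a description. Of the 60 splicing factor probes well above background on all 6 arrays, 1 (1.67%) differed over 2-fold in TIA1 KO MEF, 3 (5%) in TIAR KO MEF and 3 (5%) between the knockouts. The same shares over all 13823 such probes were 14.4%, 14.3% and 15.2%. The 95% interval lay wholly within 2-fold for 43 of the 60 (71.7%) in TIA1 KO MEF, 41 (68.3%) in TIAR KO MEF and 39 (65.0%) between the knockouts, against 45.5%, 54.2% and 43.8% of all such probes. The median absolute log2 fold change was 0.24, 0.26 and 0.21 for the splicing factor probes and 0.40, 0.39 and 0.42 for all such probes. Replicate spread was similar in both, with a median SD between the 2 arrays of 0.12 against 0.13 in WT MEF, 0.12 against 0.13 in TIA1 KO MEF and 0.14 against 0.16 in TIAR KO MEF. The splicing factor probes were also brighter, with a median log2 signal of 14.12 against 12.44 in WT MEF, and the part of brightness in the difference was not tested. Of the 5 probes among all 76 (6.58%, against 17.5% of all probes) that differed over 2-fold in TIA1 KO MEF, 4 were not well above background on all 4 arrays compared.

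**Figure D4:**
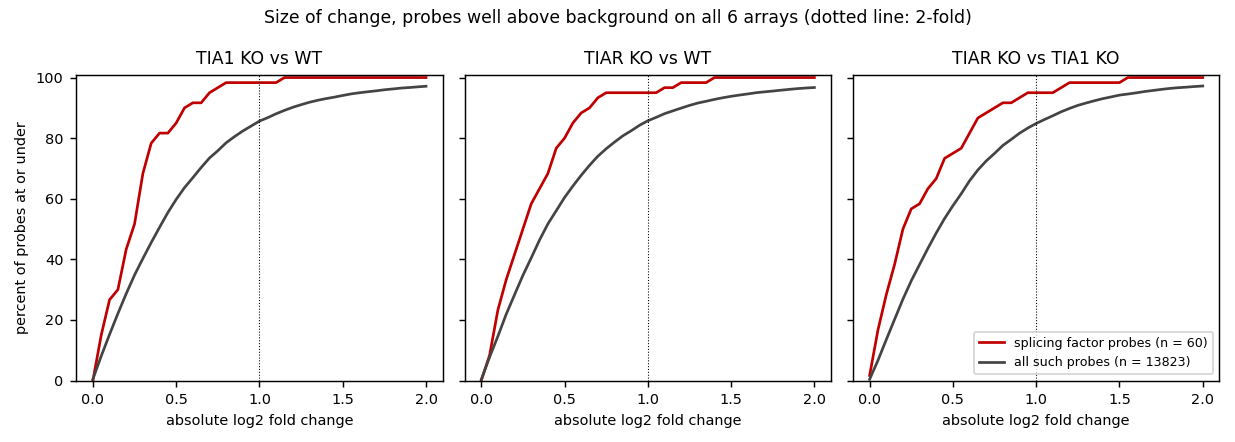
Percent of probes (y axis) with an absolute log2 fold change at or under the value on the x axis, for the 60 splicing factor probes (red) and all 13823 probes (grey) well above background on all 6 arrays. The red curve lies mostly above the grey one, with medians of 0.24, 0.26 and 0.21 against 0.40, 0.39 and 0.42.

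In TIA1 KO MEF 52 of the 76 probes, and 30 of the 39 genes read from their brightest probe, were below WT MEF, without passing the test. That is 68.4% and 76.9%, where 58.4% of all probes and 55.9% of those well above background on all 6 arrays were below. In TIAR KO MEF 46 of the 76 probes (60.5%) and 25 of the 39 genes (64.1%) were below WT MEF, against 52.8% of all probes. Of the 60 well detected splicing factor probes 70% were below in TIA1 KO MEF, against 55.9% of all such probes. In TIAR KO MEF it was 63.3%, against 53.1%. In TIA1 KO MEF 34 of the 76 probes (44.7%) had both arrays below both WT arrays, against 40.1% of all probes. For 7 (9.21%) both lay above, against 25.3%. In TIAR KO MEF 24 (31.6%) were below, against 25.5% of all, and 14 (18.4%) above, against 21.5%. Between the knockouts 24 (31.6%) were higher in TIAR KO MEF, against 36.4%, and 13 (17.1%) lower, against 23.9%. Among the 60 well detected splicing factor probes 45% had both arrays below and 10% both above in TIA1 KO MEF, against 36.7% and 27.1% of all such probes. In TIAR KO MEF 30% had both below, against 33.4%, so the higher share with both arrays below did not hold there. The share with both above was 18.3%, against 29.1%. Between the knockouts 30% were higher, against 35.2%, and 18.3% lower, against 29.7%. The median log2 fold change of the 76 probes was -0.17 in TIA1 KO MEF, -0.09 in TIAR KO MEF and 0.07 between the knockouts, where the medians of all probes were -0.12, -0.02 and 0.10. The median GC content was 38.3% for the splicing factor probes (range 21.7% to 61.7%) and 43.3% for all probes, and 13 of 76 (17.1%) held a run of TTTTT on the sense strand against 10.2% of all probes of the same length.

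Other parts of the splicing machinery were read from the brightest probe of each gene. Among 8 genes of U1-associated factors none was called in any comparison, and Luc7l2, a homologue of a yeast U1 component, gave 17.30 and 17.35 (WT MEF), 16.13 and 16.30 (TIA1 KO MEF) and 17.17 and 17.12 (TIAR KO MEF) (log2 fold change -1.11 in TIA1 KO MEF, adjusted p = 0.0670). None of 11 U2 snRNP genes and none of 12 other SR-like and exon junction genes was called either. Of 8 Sm ring genes, whose proteins coat most of the spliceosomal snRNAs, Snrpn was the exception. Snrpn, an imprinted gene whose product is best known from brain, gave 6.79 and 7.08 (WT MEF) and 7.18 and 6.88 (TIAR KO MEF), not well above background on any of those arrays, and 9.83 and 10.56 (TIA1 KO MEF). It was at least 9.58-fold higher in TIA1 KO than in WT MEF (adjusted p = 0.0378) and at least 8.97-fold higher than in TIAR KO MEF (adjusted p = 0.0384). The other 7 Sm genes lay between -0.50 and 0.08 in TIA1 KO MEF.

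Of 9 genes for kinases and import factors of SR proteins, Srpk3 was up-regulated in TIAR KO MEF, at 7.85 and 8.06, against 6.55 and 6.61 (WT MEF) and 6.49 and 6.35 (TIA1 KO MEF), arrays on which it was not well above background. This was at least 2.30-fold over WT MEF (adjusted p = 0.00819) and at least 2.64-fold over TIA1 KO MEF (adjusted p = 0.0484). Clk4, a nuclear kinase of SR proteins, was 0.87 higher in TIAR KO than in WT MEF on the log2 scale (adjusted p = 0.0367), below the 2-fold limit. Of 28 other splicing regulators, 1 was called: Esrp2, an epithelial splicing regulator, was at least 2.27-fold higher in TIAR KO than in WT MEF (adjusted p = 0.0403). Mbnl2 and Mbnl3, regulators known from muscle, had log2 fold changes of 1.23 and -2.03 in TIA1 KO MEF without passing (adjusted p = 0.280 and 0.121). A list of 12 proliferation genes had no called gene and medians of -0.41 without TIA1 and -0.63 without TIAR, relative to WT MEF. Its summed level was 349848 and 258893 (WT MEF), 237182 and 212861 (TIA1 KO MEF) and 218115 and 218574 (TIAR KO MEF), and its part in the values above was not tested.

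The calls depended on how arrays were brought to a common scale. When background-corrected values were scaled to a common array median in place of quantile normalization, 60 of the 76 probes were called in TIA1 KO against WT MEF, all of them lower, where 27.4% of all probes were called. In that scaling the median log2 fold change was -1.62 for the splicing factor probes, -1.53 for all probes well above background on all 6 arrays and -0.67 for all probes. Limited to probes well above background on all 6 arrays, the splicing factor median lay -0.15 from that of all such probes under this scaling, -0.09 from it in the authors' table and -0.09 with processed intensities scaled to the 75th percentile. The medians of both sets changed with the scaling, and which scaling gives the true shift was not tested.

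**Figure D5:**
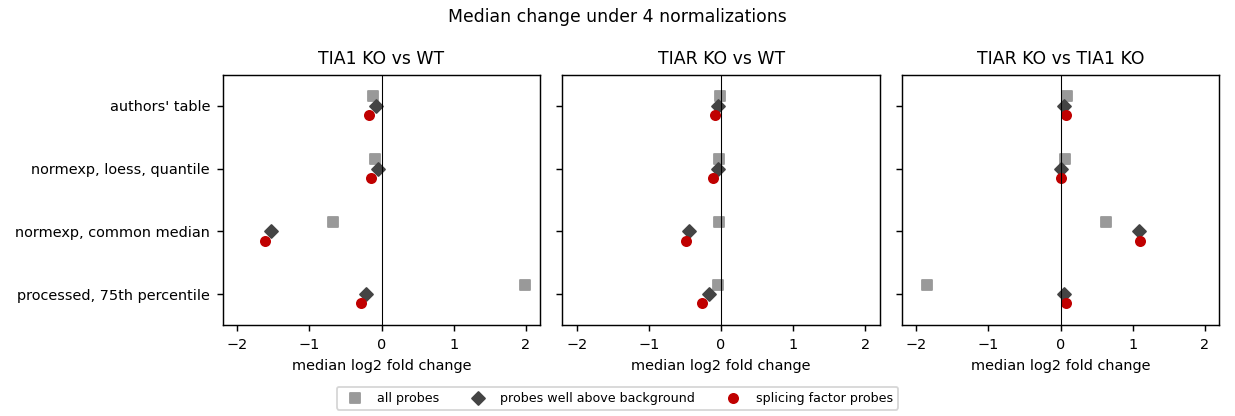
Median log2 fold change (x axis) of all probes (grey squares), of probes well above background on all 6 arrays (dark diamonds) and of the 76 splicing factor probes (red circles) under 4 normalizations (y axis), for the 3 comparisons. The red circles stay beside the dark diamonds in each row, also in the common median row of TIA1 KO against WT MEF, where they lie at -1.62 and -1.53.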

How the data were processed

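Total RNA was labelled with 1 dye and hybridized to Agilent SurePrint G3 mouse arrays. The authors deposited the spot intensity that the scanner software (Feature Extraction 10.7.3.1, mm9 positions) gave for each array, not normalized between arrays, and a table of log2 values after normexp background correction, loess and quantile normalization, as their methods describe, which also name a global normalization by the average of all gene signals. The deposited log2 table was the main source. Its columns correlated at 0.997 to 0.999 with values rebuilt from the same array's scanner intensities and at up to 0.990 with those of another array, and their medians were 7.23 to 7.28.

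Control spots were left out and spots of 1 probe averaged. Each comparison was fitted with limma (lmFit, eBayes) on its own 4 arrays over all 55681 probes, with no filter and no covariates. P-values were adjusted by Benjamini-Hochberg, and calls needed 0.05 and more than 2-fold, the thresholds of the methods. A gene was read from its brightest probe unless another is stated. Alternatives were normexp with offset 50, loess and quantile on the scanner values, scaling to a common median, processed intensities scaled to their 75th percentile, only probes well above background, all 3 groups in 1 fit, an intensity trend, a replicate block, and each array left out. The number of arrays limits the precision. Fits were tested on simulated data.

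The members and lists were chosen with earlier results of these data known. Named were the U1, 3′ splice site and PTB genes, Tia1, Tial1, members past the adjusted p or with the 3 lowest p-values of a comparison, and 3 genes per comparison whose probes differed most. Other members, marker genes and members of other lists were named after their values were seen, as examples. Of the 76 probes, 64 were matched to a current RefSeq symbol by accession (GRCm38.p6 names, no positions from it). Protein sequences and exon annotation of mm9 were not analysed here. R 4.3.3, limma 3.58.1, the data.table package (1.17.8), statmod 1.5.0, Python 3.11.15, numpy 2.4.6, pandas 2.3.3 and matplotlib 3.10.9 were used.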

Additional observations from a re-analysis of the deposited data

Results flagged for a closer look

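The distal probe of Hnrnpab (A_52_P313080) stood out because its values differed between the 2 knockout groups in a direct test. These groups also differ in strain, cell line and slide row, which cannot be told apart from genotype. TIAR KO MEF were 1.54 higher than TIA1 KO MEF on the log2 scale (limma, adjusted p = 0.0475), with 15.61 and 15.79 against 14.07 and 14.24, so the groups did not overlap. The adjusted p was 0.0202 without the second TIA1 KO array and 0.0638 to 0.421 when any other of the 4 arrays was left out, 0.183 with a replicate block and 0.0700 with processed intensities scaled to the 75th percentile (1.44). The proximal Hnrnpab probe had the same mean, 17.21, in both knockouts.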

How the results depend on the processing

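For TIA1 KO against WT MEF the number of the 76 probes called was 0 in the authors' table and 60, all lower, with arrays scaled to a common median, and 0 to 5 when 1 array was left out, the 5 arising without the second TIA1 KO array. For TIAR KO against WT MEF it was 1 (Hnrnpab, higher), against 5.63% of all probes. With the common median it was 3, all lower and without Hnrnpab, against 7.29%. With processed intensities at the 75th percentile it was 0, against 4.46%. For TIAR KO against TIA1 KO MEF it was 1, and 16, all higher, with the common median, 0 with the 75th percentile, 2 with all groups in 1 fit, 0 with a replicate block and 0 to 8 with 1 array left out, the 8 arising without the second TIA1 KO array. The median of the splicing factor probes minus that of all probes was -0.05, -0.07 and -0.02 in these comparisons. It was -0.95, -0.46 and 0.47 with the common median and -2.27, -0.22 and 1.92 with the 75th percentile. With the 75th percentile the medians of all probes were 1.98, -0.04 and -1.85. Those of the splicing factor probes were -0.28, -0.26 and 0.08. The difference was 0.14, -0.06 and -0.21 with only probes well above background. With 1 array left out it was -0.0725 to 0.035, -0.1075 to -0.0175 and -0.075 to 0.0325. The same was taken for the 60 splicing factor probes well above background on all 6 arrays, an alternative chosen after seeing the data. Their median minus that of all such probes was -0.09, -0.06 and 0.02 in the authors' table. The values were -0.15, -0.10 and 0.04 with the common median, and -0.09, -0.13 and 0.03 with the 75th percentile. With the common median 3 named probes in TIA1 KO MEF turned from above 0 to below and passed the adjusted p: Snrpc at -1.48, Srsf1 at -1.49 and Hnrnpa3 (A_55_P1957344) at -1.25. The median of all probes well above background on every array was -1.53 there, lower than each of these values. The lone array left in a group was assumed to vary like the other group. All-probe calls also depended on the setting. They were 1293, 3133 and 1261 in the 3 comparisons, and 15250, 4061 and 7678 with the common median, 0, 2484 and 1524 with the 75th percentile, and 0 in TIA1 KO against WT MEF and 0 between the knockouts with a replicate block. With normexp, loess and quantile on the scanner values they were 1969 and 1866 in the comparisons with TIA1 KO MEF, with only probes well above background 2245 and 2293, and with all groups in 1 fit 3542, 2020 and 3269. Leaving out 1 array gave 0 to 11131, 0 to 908 and 0 to 11296, the highest of the first and the last without the second TIA1 KO array. At an unadjusted p under 0.05 the block gave 11309 and 9564 there. The replicate numbers share only a number: same-numbered arrays correlated at 0.03, 0.07 and -0.05 after removing group means, and the block left 1 splicing factor probe called in TIAR KO against WT MEF. Over the named genes, 1038 values under an alternative kept direction and side of an adjusted p of 0.05 (whatever the fold), 26 no longer passed it, 63 newly passed it, 88 changed sign without passing and 3 changed sign and passed. The cause of these differences was not tested. Signal over background limits the dim probes in TIA1 KO MEF most.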
